A study of Arabidopsis thaliana with 9 samples.

Results

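The MtN21/EamA-like family of Arabidopsis thaliana was followed in 2 genotypes with altered GOLDEN2-LIKE (GLK) function. Members were the 45 of 37328 genes in the authors' deposited table whose description reads exactly nodulin MtN21 /EamA-like transporter family protein. RNA sequencing had compared whole seedlings in the Col-0 background from 3 genotypes: RPGE2-OX, which overexpresses RPGE2, a repressor of GLK activity; glk12, a double mutant of GLK1 and GLK2; and the wild type (WT). There were 3 replicates per genotype. After 3 days at 4 °C, all seedlings grew for 7 days at 22 °C under constant white light (50 µmol photons per square metre and second). For the promoter that drives RPGE2, the number of independent lines and the nature of the glk alleles, nothing was given in the sources used here. The authors' deposited table gave 1 log2 ratio and 1 q value per gene for each line over WT, so no level, replicate value, SD or depth per library can be shown, and the error of each ratio enters only through its q value.

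Members of this family are membrane carriers built of paired EamA domains, and most Arabidopsis genes of the family carry the name UMAMIT, for Usually Multiple Acids Move In and out Transporters. Several UMAMIT proteins let amino acids pass out of cells, which is how amino acids reach the apoplast before they are taken up by proton-coupled importers in the phloem, in growing sinks and in seeds. Others of the family move different cargo, such as auxin or glucosinolates. GLK1 and GLK2 are transcription factors best known for switching on nuclear photosynthesis genes, and leaves that photosynthesise and assimilate nitrogen are the main source of exported amino acids.

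RefSeq gave 41 of the 45 members a UMAMIT name, with SIAR1 as the symbol of UMAMIT18. RefSeq noted the other 4 members, AT1G06890, AT1G48230, AT1G53660 and AT3G02690, as nucleotide/sugar transporters, so the description spans more than amino acid carriers. The members lay on all nuclear chromosomes, with 13 on chromosome 1, 4 on chromosome 2, 11 on chromosome 3, 10 on chromosome 4 and 7 on chromosome 5. Most shared one architecture: 29 had 7 exons, within a range of 4 to 10, and the predicted proteins ran from 270 to 417 residues with a median of 367. The shortest was that of UMAMIT16-psi, whose symbol marks it as a presumed pseudogene.

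The sequences upstream of SIAR1 and UMAMIT17 are shown because these genes had the most similar coding sequences among the members that fell, with 76.2% identical bases. Each line gives the 300 bases before the annotated gene start on TAIR10.1, read 5′ to 3′ on the strand of the gene, from chr1:16917054-16917353 on the minus strand for SIAR1 and chr4:5244565-5244864 on the plus strand for UMAMIT17. Capitals mark the longest run of letters that both windows share.
SIAR1: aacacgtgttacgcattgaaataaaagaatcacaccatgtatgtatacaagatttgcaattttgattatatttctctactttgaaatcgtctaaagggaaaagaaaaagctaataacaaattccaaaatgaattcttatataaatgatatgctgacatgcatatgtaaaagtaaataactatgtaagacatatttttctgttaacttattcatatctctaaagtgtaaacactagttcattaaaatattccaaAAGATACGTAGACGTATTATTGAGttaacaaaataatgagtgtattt
UMAMIT17: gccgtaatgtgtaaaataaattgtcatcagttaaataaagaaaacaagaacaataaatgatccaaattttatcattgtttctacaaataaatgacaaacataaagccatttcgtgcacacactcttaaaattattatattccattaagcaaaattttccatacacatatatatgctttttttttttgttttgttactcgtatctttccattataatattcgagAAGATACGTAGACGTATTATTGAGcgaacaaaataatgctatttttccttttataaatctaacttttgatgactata
The shared run was 24 bases long and lay between positions -47 and -24 from the gene start in SIAR1 and between -77 and -54 in UMAMIT17. Over all 990 pairs of members, the median longest shared run was 9 bases. Of 27443 windows of the same length before nuclear protein-coding genes, searched on both strands, 2 held the 24-base run, those of SIAR1 and UMAMIT17. The run was taken from these 2 windows, and any run of this length is seldom repeated, so the count is a description. A longer run was found in a single pair, the neighbouring genes UMAMIT27 and UMAMIT26, which share 89.8% of coding bases.
UMAMIT27 and UMAMIT26: ggaacaaGATTCTaatattatttaaa
Capitals in this 26-base run mark the motif GATTCT, and neither of these 2 genes passed the threshold in RPGE2-OX or glk12. The search for shared runs was chosen after the sequences had been read.

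The targeted genes were read before the family. In the authors' deposited table, GLK1 (GPRI1 in RefSeq) had a log2 ratio of 0.45 in RPGE2-OX (q = 0.0132) and -2.64 in glk12 (q = 0.00191), and GLK2 had 0.40 in RPGE2-OX (q = 0.0379) and -1.41 in glk12 (q = 0.00191). No locus is paired with the symbol RPGE2 in that table or in RefSeq, so the overexpressed gene could not be read by name. AT3G55240 is described in the deposited table as a plant protein of unknown function and was named here after its values were seen. It had a log2 ratio of 4.79 in RPGE2-OX (q = 0.00176) and -6.46 in glk12 (q = 0.00191). Neither that table nor RefSeq says whether this locus is RPGE2. A gene was called, here and throughout, where the authors' q was below 0.05, and a q of 1 marked genes without a test.

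Of the 45 members, 37 were tested in RPGE2-OX and 38 in glk12. In RPGE2-OX, 4 members fell and none rose (10.8% called, against 6.55% of all tested genes called in either direction): UMAMIT36, UMAMIT14, SIAR1 and UMAMIT12. In glk12, 6 members fell and none rose (15.8% called, against 5.67% of all tested genes): UMAMIT36, UMAMIT14, UMAMIT17, SIAR1, UMAMIT12 and UMAMIT30. By direction, 3.98% of all tested genes were lower and 2.57% higher in RPGE2-OX, and 3.04% were lower and 2.63% higher in glk12. Members were selected on their description, but the family itself was chosen by the deposited ratios and q values of both lines, so its counts are a description, with no test. Both comparisons use the same WT libraries, so the calls in RPGE2-OX and glk12 do not stand for separate observations.

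**Figure D1:**
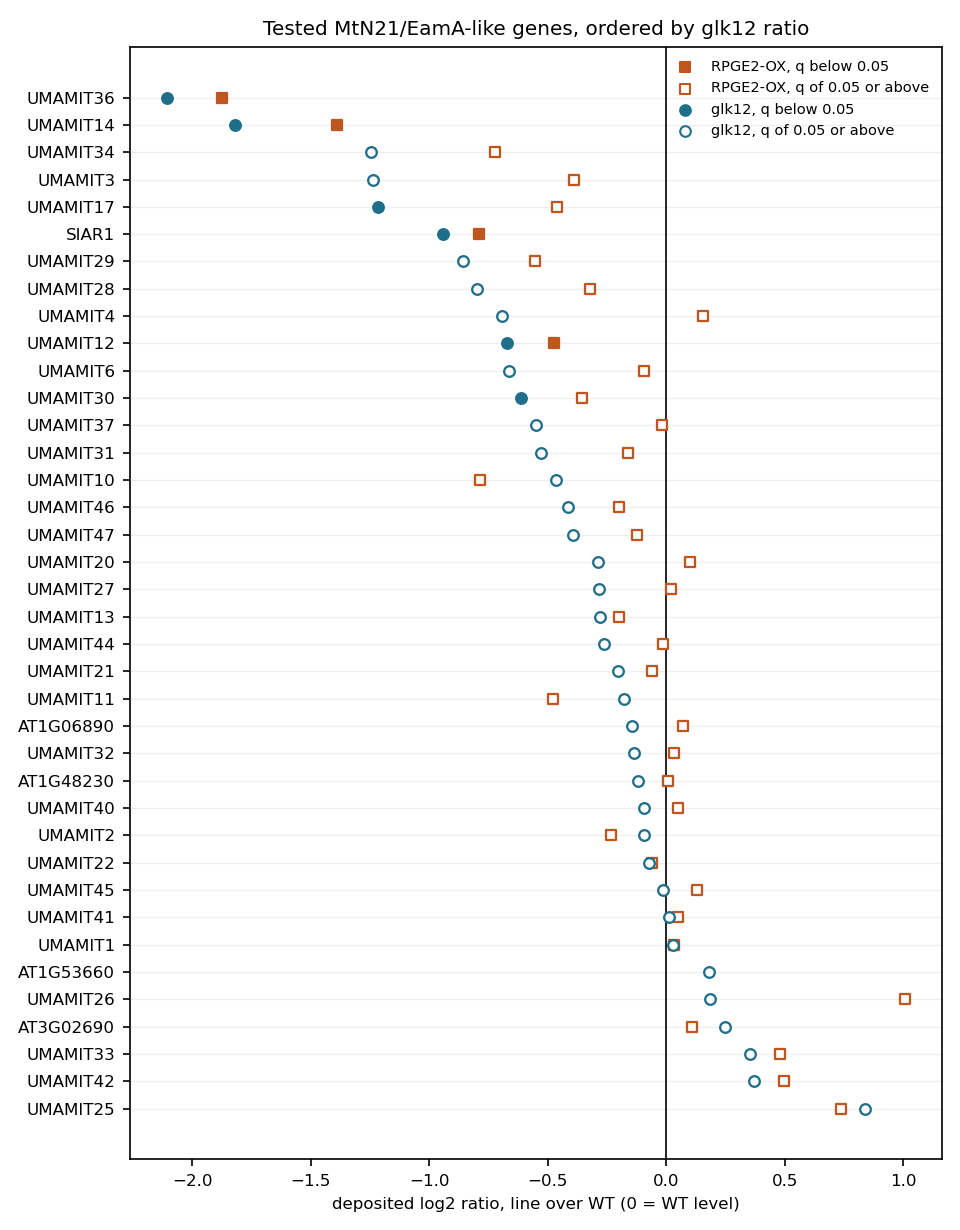
Deposited log2 ratios over WT (horizontal axis, 0 is the WT level) of the 38 tested members, 1 row per gene, ordered by the glk12 ratio. Squares are RPGE2-OX and circles glk12, filled where q was below 0.05. The filled symbols lie below 0, with RPGE2-OX between -1.88 and -0.47 and glk12 between -2.11 and -0.61, and open symbols as low as -1.25 stand among them.

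The characterised amino acid carriers among these genes were SIAR1 and UMAMIT14. SIAR1 (AT1G44800, chromosome 1, 16913994 to 16917053 on TAIR10.1, minus strand, 7 exons, 370 residues) encodes a bidirectional amino acid transporter named for the red siliques of its mutant. In the authors' deposited table its log2 ratio was -0.79 in RPGE2-OX, a 1.73-fold fall at q = 0.00176, and -0.94 in glk12, a 1.92-fold fall at q = 0.00191. These are the lowest q values that the deposited table holds for each line, and 615 genes have that value in RPGE2-OX and 571 in glk12. UMAMIT14 (AT2G39510, chromosome 2, 16491143 to 16493343, minus strand, 7 exons, 374 residues) encodes an exporter that acts with SIAR1 in the unloading of amino acids from the root phloem and that also works in seeds. Its deposited ratio was -1.39 in RPGE2-OX (2.62-fold lower, q = 0.0444) and -1.82 in glk12 (3.53-fold lower, q = 0.0311). UMAMIT14 thus had a larger change than SIAR1 in both lines and a q value closer to the threshold.

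Exporters known mainly from seed loading gave mixed values, and none passed. UMAMIT14, which also works in seeds, was called in both lines and is described above, so this grouping is no contrast between seed and other exporters. UMAMIT11 had a deposited log2 ratio of -0.48 in RPGE2-OX (q = 0.0636) and -0.18 in glk12 (q = 0.82). UMAMIT28 lay at -0.32 in RPGE2-OX (q = 0.472) and -0.80 in glk12 (q = 0.087) in the deposited table. UMAMIT11 was thus nearer to the threshold in RPGE2-OX and UMAMIT28 in glk12, and the difference between the lines was not tested for either gene. UMAMIT25 had positive deposited ratios in both lines, 0.74 in RPGE2-OX (q = 0.359) and 0.84 in glk12 (q = 0.377), the highest glk12 ratio of the tested members. UMAMIT20 did not pass, at 0.10 in RPGE2-OX (q = 0.879) and -0.29 in glk12 (q = 0.617) in the deposited table. UMAMIT24, another gene of seeds, is listed in the deposited table with a ratio of 0 for each line and has no test.

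UMAMIT29, UMAMIT31 and UMAMIT30 lie close together on chromosome 4 and encode exporters of glucosinolates, the sulphur-rich defence compounds of Brassicales; UMAMIT29 also carries amino acids. All 3 genes had ratios below 0 in both lines. UMAMIT30 (AT4G01450, 608273 to 610765, plus strand, 6 exons, 361 residues) was the member of the trio that passed, with a deposited ratio of -0.36 in RPGE2-OX (q = 0.105) and -0.61 in glk12 (1.53-fold lower, q = 0.0238). UMAMIT29 had the larger but uncalled ratios, -0.55 in RPGE2-OX (q = 0.198) and -0.86 in glk12 (q = 0.106) in the deposited table. UMAMIT31, whose coding sequence shares 69% of bases with UMAMIT30, lay at -0.16 in RPGE2-OX (q = 0.735) and -0.53 in glk12 (q = 0.161). The side of the threshold therefore did not follow the size of the ratio in this trio.

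The largest fall of the family was that of UMAMIT36 (AT1G70260, chromosome 1, 26456774 to 26459570, minus strand, 7 exons, 375 residues), also known as RTP1, a gene that lowers resistance to biotrophic pathogens. Its deposited ratio was -1.88 in RPGE2-OX (3.67-fold lower, q = 0.00705) and -2.11 in glk12 (4.31-fold lower, q = 0.0192). Its coding sequence was not close to that of any other member, with at most 56.1% identical bases, shared with UMAMIT41. UMAMIT41 itself had deposited ratios of 0.05 in RPGE2-OX (q = 0.944) and 0.01 in glk12 (q = 0.994).

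UMAMIT17 and UMAMIT12 completed the genes that fell. UMAMIT17 (AT4G08300, chromosome 4, 5244865 to 5248394, plus strand, 7 exons, 373 residues), the gene closest to SIAR1, lay at -0.46 in RPGE2-OX (q = 0.0623) and -1.22 in glk12 (2.32-fold lower, q = 0.00191) in the deposited table. SIAR1 was thus called in both lines, while UMAMIT17 was called in glk12 and had the lowest q above the threshold in RPGE2-OX; whether its ratios differ between the lines was not tested. UMAMIT12 (AT2G37460, chromosome 2, 15726338 to 15729170, minus strand, 6 exons, 380 residues) had the smallest called ratio in RPGE2-OX, -0.47 (1.39-fold lower, q = 0.0238), and lay at -0.67 in glk12 (1.6-fold lower, q = 0.0287) in the deposited table. None of the 6 genes that fell overlaps another annotated gene on TAIR10.1.

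Neighbouring members were set side by side to see whether position went with the ratio. Allowing up to 2 other protein-coding genes in between, 17 members formed 6 tandem groups, and 3 of the 6 genes that fell were in such groups. Each of these 3 had a neighbour that was not called. UMAMIT13 lies 1275 bases from UMAMIT12 and shares 74.1% of its coding bases, and its deposited ratios were -0.20 in RPGE2-OX (q = 0.583) and -0.28 in glk12 (q = 0.568). UMAMIT20, next to UMAMIT17 at a distance of 3752 bases, had the uncalled values given above. The largest tandem group, UMAMIT41, UMAMIT46, UMAMIT47, UMAMIT45 and UMAMIT44 on chromosome 3, held no called gene, and its deposited ratios ran from -0.20 to 0.13 in RPGE2-OX and from -0.42 to 0.01 in glk12. UMAMIT42, UMAMIT37 and UMAMIT40 on chromosome 5 had deposited ratios of 0.50, -0.02 and 0.05 in RPGE2-OX and 0.37, -0.55 and -0.10 in glk12, none of them called.

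**Figure D2:**
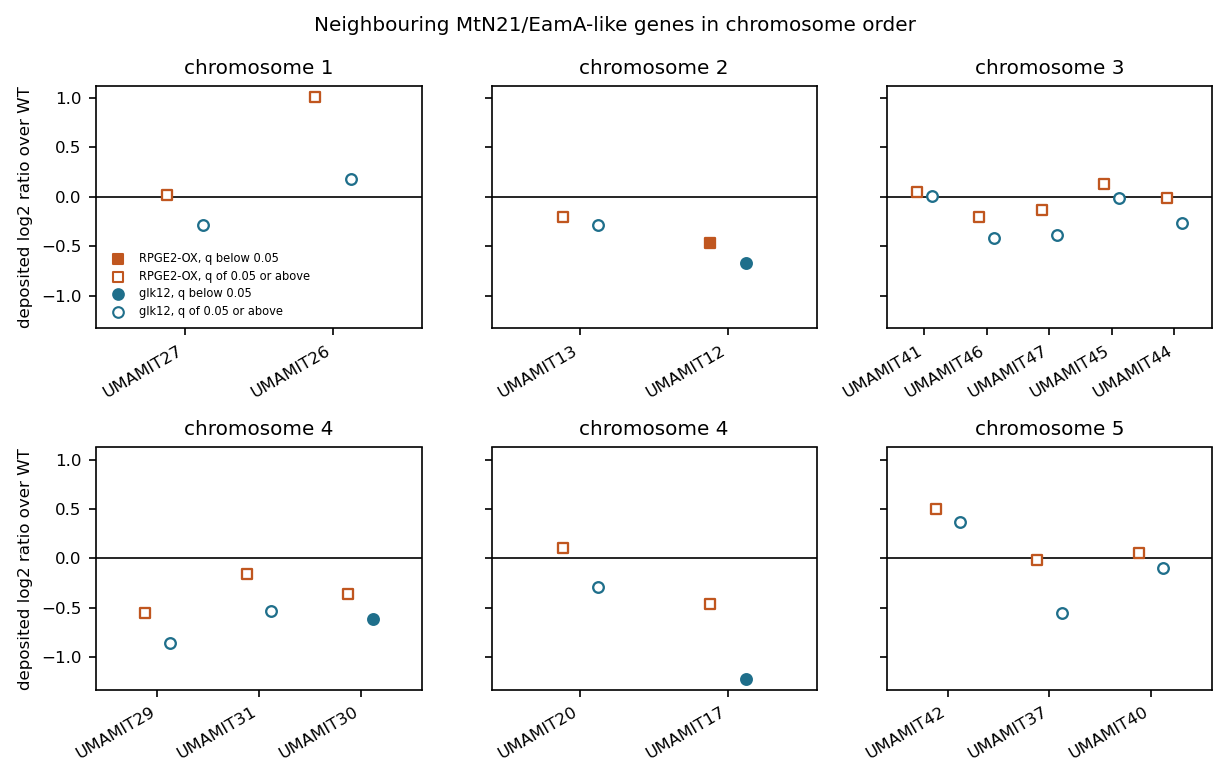
Deposited log2 ratios over WT (vertical axis) of the 17 members in 6 tandem groups, 1 panel per group with genes in chromosome order. Squares are RPGE2-OX and circles glk12, filled where q was below 0.05. Filled symbols stand beside open ones in the groups of UMAMIT12, UMAMIT30 and UMAMIT17, and the 5 genes on chromosome 3 stay between -0.42 and 0.13.

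Coding sequences were aligned in all 990 pairs, with identity given as identical bases in percent of the longer sequence. The median was 51.9%, with a range of 40.8% to 89.8%. Blocks of close relatives stood out in the matrix of identities: UMAMIT44 to UMAMIT47, UMAMIT26 to UMAMIT29, and UMAMIT1 to UMAMIT3. UMAMIT46 and UMAMIT47 share 88.9% of coding bases, UMAMIT45 and UMAMIT46 share 87.2%, and UMAMIT27 and UMAMIT28 share 82.9%. No rule for counting reads that match several genes was given in the sources used here, so the ratios of these genes may be mixed among copies. The genes that fell did not come from 1 block. SIAR1, UMAMIT17, UMAMIT14 and UMAMIT12 shared between 57% (SIAR1 and UMAMIT12) and 76.2% (SIAR1 and UMAMIT17) of bases in pairs. UMAMIT36 shared at most 55.9% with any other gene that fell, and UMAMIT30 at most 53.4%.

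**Figure D3:**
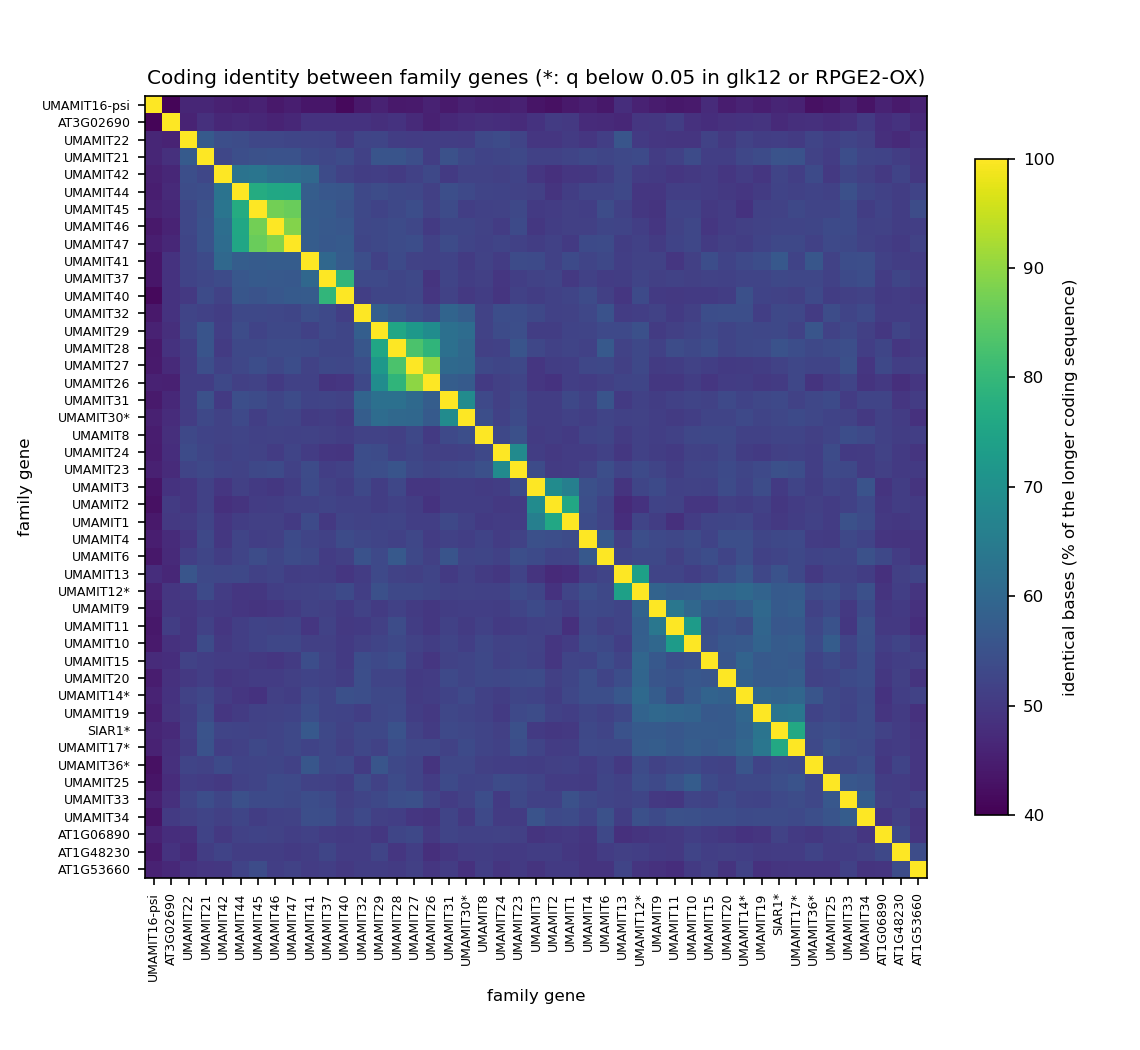
Identity of coding sequences on TAIR10.1 between all 45 members, as identical bases in percent of the longer sequence (colour), with genes on both axes ordered by average-linkage clustering. Asterisks mark genes with q below 0.05 in glk12 or RPGE2-OX. The brightest blocks are those of UMAMIT44 to UMAMIT47 and of UMAMIT26 to UMAMIT29, and asterisks are spread over several blocks.

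Among the members that did not pass, several had ratios as large as those that did. UMAMIT34 had a deposited log2 ratio of -0.72 in RPGE2-OX (q = 0.412) and -1.25 in glk12 (q = 0.183), and UMAMIT3 had -0.39 in RPGE2-OX (q = 0.926) and -1.24 in glk12 (q = 0.676). UMAMIT10, close to UMAMIT11 in sequence, lay at -0.79 in RPGE2-OX (q = 0.0889) and -0.47 in glk12 (q = 0.592) in the deposited table. UMAMIT4 lay at 0.16 in RPGE2-OX (q = 0.86) and -0.69 in glk12 (q = 0.249). In at least 1 line each of these 4 genes had a ratio of the size of called members with a q value above the threshold. The highest RPGE2-OX ratio was that of UMAMIT26, 1.01 (q = 0.133), beside 0.18 in glk12 (q = 0.956) in the deposited table. UMAMIT33 had deposited ratios of 0.48 in RPGE2-OX (q = 0.575) and 0.35 in glk12 (q = 0.837).

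UMAMIT6 lay at -0.09 in RPGE2-OX (q = 0.961) and -0.67 in glk12 (q = 0.413) in the deposited table, and UMAMIT27 lay at 0.02 in RPGE2-OX (q = 0.985) and -0.28 in glk12 (q = 0.636). The deposited ratios of UMAMIT1, UMAMIT2, UMAMIT21, UMAMIT22 and UMAMIT32 lay between -0.23 and 0.03 in RPGE2-OX and between -0.21 and 0.03 in glk12. The nucleotide/sugar transporters had no call: 3 were tested in RPGE2-OX, with deposited ratios from 0.01 to 0.11, and all 4 in glk12, from -0.15 to 0.25. Their median size of ratio was 0.07 in RPGE2-OX, against 0.22 for the tested UMAMIT members. In glk12 it was 0.16, against 0.40 for the tested UMAMIT members.

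A group of 7 members had no test in either line. The deposited table lists UMAMIT9 and UMAMIT16-psi with infinite negative ratios in both lines, which is a line listed at 0, and UMAMIT23 with an infinite negative ratio in RPGE2-OX and 0.63 in glk12. UMAMIT15 had deposited ratios of -1.55 in RPGE2-OX and -2.05 in glk12, UMAMIT19 had 0.13 in RPGE2-OX and -2.29 in glk12, and UMAMIT8 had -1.77 in RPGE2-OX and 0.09 in glk12. UMAMIT24 was described with the seed exporters. These genes were taken as untested by their deposited q values, so nothing is said of a change in them. AT1G53660 was tested in glk12 (deposited ratio 0.18, q = 0.958) and not in RPGE2-OX.

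Relatives that the exact description leaves out were read as well. WAT1, also known as UMAMIT5, exports auxin from the vacuole and is needed for secondary walls. In the deposited table WAT1 fell in RPGE2-OX (-0.45, q = 0.0176) and lay at -0.53 in glk12 (q = 0.0638), so the line with the larger ratio was not the line with the call. UMAMIT38 had deposited log2 ratios of -0.05 in RPGE2-OX (q = 0.95) and 0.24 in glk12 (q = 0.63). UMAMIT7, UMAMIT35, UMAMIT39-psi and UMAMIT43-psi had no test in either line. AT1G77610, AT2G05755, AT3G07080 and AT4G32140, relatives without a UMAMIT name, were tested in both lines and not called. Their deposited ratios lay between -0.13 and 0.12 in RPGE2-OX and between -0.10 and 0.07 in glk12.

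Some members overlap a gene on the opposite strand of TAIR10.1: UMAMIT3, UMAMIT15, UMAMIT19, UMAMIT21, UMAMIT33, UMAMIT34, AT1G48230 and AT3G02690. Whether the counting behind the deposited ratios used the strand was not stated, so the ratios of these genes may include reads of their neighbours. None of them was called.

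Across the tested members as a whole, deposited ratios were shifted below 0 more in glk12 than in RPGE2-OX. The median ratio was -0.06 in RPGE2-OX and -0.28 in glk12, while the median over all tested genes was 0.01 in RPGE2-OX and 0.02 in glk12. In RPGE2-OX 22 of 37 tested members lay below 0 (59.5%, against 47.8% of all tested genes), and in glk12 30 of 38 did (78.9%, against 47.6%). The middle of the family ran from -0.39 to 0.05 in RPGE2-OX and from -0.67 to -0.08 in glk12 (lower and upper quartiles).

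RPGE2-OX was set against glk12 by the difference of the deposited log2 ratios, in which the WT values cancel. The authors' table holds no test of this difference. Of the 37 members tested in both lines, 32 had a positive difference, RPGE2-OX minus glk12, which means a higher ratio in RPGE2-OX (86.5%, against 49.8% of 21380 genes tested in both lines with finite ratios). The median difference over these members was 0.21. The largest differences were those of UMAMIT3 and UMAMIT4, both 0.85, UMAMIT26 with 0.82 and UMAMIT17 with 0.76. The members with a lower ratio in RPGE2-OX were UMAMIT10 (-0.32), UMAMIT11 (-0.30), AT3G02690 (-0.14), UMAMIT2 (-0.14) and UMAMIT25 (-0.10). UMAMIT10 and UMAMIT11, whose ratios were both lower in RPGE2-OX, are each other's closest relatives, with 73% of coding bases shared. Genes are not replicates of a condition, so the shares are given without a test.

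Other genes of amino acid transport and nitrogen assimilation were read from lists that name no member of the family. Calls in these lists, and in the sugar exporter and marker lists below, stand beside the shares of all tested genes. These shares were 3.98% lower and 2.57% higher in RPGE2-OX, and 3.04% lower and 2.63% higher in glk12. The lists are small, and their counts were not tested against these shares. Among 20 tested amino acid importers (permeases of the AAP, LHT, PROT and CAT groups and ANT1) none passed in RPGE2-OX (median ratio -0.16). Among 21 tested in glk12, CAT2 rose and AAP2 fell (median 0.03). The deposited ratio of CAT2, a carrier of cationic amino acids, was 0.55 in glk12 (q = 0.0407), and that of AAP2, a phloem amino acid permease, was -0.64 in glk12 (q = 0.00754).

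The glutamine dumper proteins, small membrane proteins whose overexpression makes Arabidopsis secrete glutamine, and the bidirectional carrier BAT1 gave 1 fall of 8 tested genes in each line. GDU4 was the gene that fell, with a deposited ratio of -0.68 in RPGE2-OX (1.6-fold lower, q = 0.00176) and -1.15 in glk12 (2.21-fold lower, q = 0.00191). The list's median ratio was -0.39 in RPGE2-OX and -0.51 in glk12. GDU6 did not pass, with -1.88 in RPGE2-OX (q = 0.469) and -0.79 in glk12 (q = 0.729) in the deposited table. GDU7 did not pass either, with -0.99 in RPGE2-OX (q = 0.605) and -2.11 in glk12 (q = 0.289).

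Nitrogen assimilation genes moved in both directions. Of 14 tested genes, 2 rose and 2 fell in RPGE2-OX (median -0.03), and 4 rose and 1 fell in glk12 (median 0.11). GLN1;4, a cytosolic glutamine synthetase gene, fell in both lines, with a deposited ratio of -2.42 in RPGE2-OX (5.36-fold lower, q = 0.00176) and -1.71 in glk12 (3.26-fold lower, q = 0.00191). GSR 1, the symbol of GLN1;1 in RefSeq, fell in RPGE2-OX (-0.44, q = 0.0223) and lay at -0.02 in glk12 (q = 0.987). The rises were those of the asparagine synthetase gene ASN2, at 0.53 in RPGE2-OX (q = 0.00176) and 0.63 in glk12 (q = 0.00886), and of the glutamate dehydrogenase gene GDH2, at 0.45 in RPGE2-OX (q = 0.02) and 0.98 in glk12 (q = 0.00191). ASN1 rose in glk12, with a deposited ratio of 0.74 (q = 0.00191), and GDH1 rose in glk12 with 0.65 (q = 0.0124). The plastid glutamine synthetase gene GS2 did not pass, at -0.09 in RPGE2-OX and 0.05 in glk12.

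The SWEET sugar exporters, a carrier family of another fold that also feeds the phloem, had 1 fall of 9 tested genes in RPGE2-OX (SWEET12, deposited ratio -0.52, q = 0.0113) and no call among 10 in glk12. Their median ratio was -0.14 in RPGE2-OX and 0.13 in glk12.

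**Figure D4:**
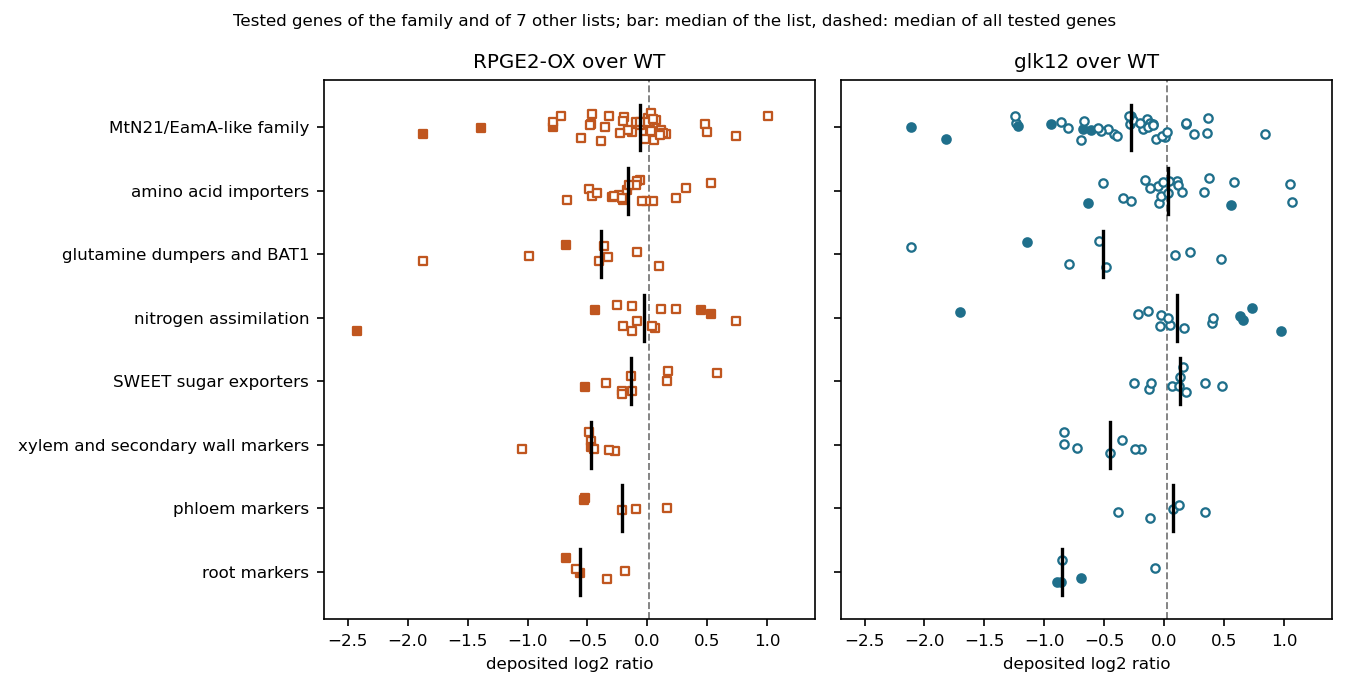
Deposited log2 ratios (horizontal axis) of tested genes in the family and in 7 other lists, in RPGE2-OX over WT at the left and glk12 over WT at the right. Filled symbols had q below 0.05, black bars are list medians and the dashed line is the median of all tested genes. In glk12 the family's median of -0.28 lies left of the dashed line, and that of the importers (0.03) lies on it. That of the glutamine dumpers and BAT1 (-0.51) lies further left, and root markers have the lowest median, -0.85. In RPGE2-OX the family's median of -0.06 lies nearer to the dashed line than those of the importers (-0.16), SWEET exporters (-0.14) and glutamine dumpers and BAT1 (-0.39). SWEET11 and SWEET12 stand in both the SWEET and the phloem list.

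Markers of tissues that a seedling holds stood beside these values. Of 5 root markers, RCI3 and SHV2 (also called COBL9) fell in RPGE2-OX and RCI3, SHV2 and EXPA18 fell in glk12. Median deposited ratios were -0.56 in RPGE2-OX and -0.85 in glk12, with a range of -0.68 to -0.19 in RPGE2-OX and -0.89 to -0.08 in glk12. PHT1;1 did not pass, at -0.19 in RPGE2-OX (q = 0.702) and -0.08 in glk12 (q = 0.961). EXPA7 did not pass either, at -0.34 in RPGE2-OX (q = 0.626) and -0.85 in glk12 (q = 0.205). All 7 xylem and secondary wall markers had ratios below 0 in both lines (medians -0.47 in RPGE2-OX and -0.46 in glk12), and XCP2 fell in RPGE2-OX. Of 5 phloem markers SEOR1 and SWEET12 fell in RPGE2-OX and none passed in glk12 (medians -0.21 in RPGE2-OX and 0.07 in glk12). SWEET11 and SWEET12 also stand in the SWEET list, so the fall of SWEET12 is counted in both lists. All of the root, xylem and phloem markers were tested, so none was listed at 0. In whole seedlings, fewer cells of a type and less RNA per cell cannot be told apart. The part of these tissues in the family's ratios was not tested.

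Upstream windows of 300 bases were searched for the letters CCAATC and GATTCT, which have been linked to GLK binding, and for the G-box CACGTG, on both strands. The letters of the motifs were searched apart from each other, and a window with overlapping matches counts for each motif. CCAATC or GATTCT stood before 14 of 45 members (31.1%), against 28.8% of 27443 nuclear protein-coding genes. Of the 6 genes that fell, SIAR1 held one of them: GATTCT on the minus strand relative to the gene, from position -275 to -270. SIAR1 also held a G-box from -298 to -293 and was the only one of the 6 to do so. UMAMIT36, UMAMIT12, UMAMIT14, UMAMIT30 and UMAMIT17 held none of the 3 motifs in this window. The G-box stood before 4 of 45 members (8.89%), against 7.09% of all windows. A match describes letters in the window, and its absence says only that these letters are not in it.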

How the data were processed

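RNA sequencing libraries came from whole seedlings of RPGE2-OX, glk12 and WT, 3 replicates each. Per the labels' protocols, stranded libraries were made from 1 µg of total RNA. Per the submitters' processing notes, the build was TAIR10 and the tools were Cuffdiff, Cufflinks, TopHat and CASAVA 1.8.2; their settings were not stated. The log2 ratios and q values were computed and deposited by the authors, and no unit of the levels behind them was stated. The labels do not say whether replicates were separate cultures, so the spread behind the q values may be technical.

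Spreadsheet error text in the ratio columns was read as infinite ratios, with signs set so that 1294 genes infinite in both lines had equal signs and 0 had opposite signs. Genes with q of 1 were taken as untested. Calls are the authors' own at q below 0.05; since the table has no replicate values, no test was added. Names, coordinates and sequences came from RefSeq on TAIR10.1, matched by locus; the deposited table holds no coordinates. Coding sequences of the longest-coding transcript were aligned globally with Biopython 1.88, and the motif and alignment steps were tested on simulated data. The members and lists were chosen with earlier results of these data known. Named genes were all called members, members with a known role, the 5 nearest above the threshold in each line and the extremes, and the other members were added so that all are accounted for. The further alternatives were other q thresholds, a 2-fold minimum, centring and other membership rules.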

Additional observations from a re-analysis of the deposited data

How the results depend on the processing

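No paired analysis was possible because the authors' table holds 1 value per gene and comparison, and leaving out replicates was not run for the same reason. The count of members that fell was 4 in RPGE2-OX and 6 in glk12. At a q threshold of 0.01 it was 2 in RPGE2-OX and 2 in glk12, while 2.37% of all tested genes were lower in RPGE2-OX and 1.81% in glk12. At a q threshold of 0.1 it was 7 in RPGE2-OX and 7 in glk12, while 5.18% of all tested genes were lower in RPGE2-OX and 4.07% in glk12. With a minimum of 2-fold it was 2 in RPGE2-OX and 3 in glk12, while 1.2% of all tested genes were lower in RPGE2-OX and 1.34% in glk12. No member rose under any of these settings. Taking the 47 genes with a UMAMIT name as members gave 5 falls in RPGE2-OX, since WAT1, a vacuolar auxin transporter outside the exact description, lay at -0.45 there (q = 0.0176) and at -0.53 in glk12 (q = 0.0638). The median ratio in RPGE2-OX was then -0.11, against -0.06 for the 37 tested members. Using any description with MtN21 or EamA changed neither count of falls. Centring on the median of all tested genes, or taking every finite ratio other than 0 as tested, could not change them. Both settings leave the authors' q values as they are, and the shift by centring is far smaller than any called ratio. Depth is unknown, and members without a test may be expressed at low levels.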
